A study of Mus musculus with 6 samples.

Results

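The markers described here are 10 mouse genes that tell apart the 2 capillary endothelial cell types of the lung. Car4, Apln, Fibin, Tbx2 and Prx mark aerocytes, and Gpihbp1, Plvap, Aplnr, Kit and Emcn mark general capillary cells. They were chosen by symbol from 56980 genes, each symbol matched 1 gene, and all 10 had a mean of at least 1 TPM (a transcript level scaled to gene length and to the library total) over the 6 libraries and so were tested. Bulk RNA sequencing was done on whole lung of NSG mice, an immunodeficient strain without mature lymphocytes, 5 weeks after human MDA-MB-231 breast cancer cells had been injected into the mammary fat pad. In the Ctrl group (3 libraries) the injected cells were MDA-MB-231, and in the DPP3_KO group (3 libraries) the same line carried a knockout of DPP3, the gene of dipeptidyl peptidase 3. The mice of both groups carried a tumour, and no lung without a tumour was analysed here. The labels do not say whether the knockout line is 1 clone, nor do they state that the replicates are different mice; the tests compare only these libraries, whose spread may be technical. DPP3 was deleted in the human cells, so no mouse gene checks the group labels.

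Aerocytes are large, thin capillary cells that lie against alveolar type 1 cells and are specialised for gas exchange. General capillary cells line the rest of the alveolar capillary bed, help set vascular tone and act as progenitors that renew both types after injury. The types are linked by a signal: aerocytes make the peptide apelin, and general capillary cells carry its receptor. In bulk tissue, fewer cells of a type and less RNA per cell cannot be told apart.

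The sequencing depth is unknown, since the TPM of each library add up to the same total. The club cell gene Scgb1a1 took 7.16% to 10.1% of all TPM in Ctrl and 21.7% to 28.7% in DPP3_KO, and the median log2 change over all 15650 genes tested was -0.60 as deposited. Median-of-ratios scaling, which sets each library against its typical gene, brought that median to -0.02. The changes of the 10 markers are therefore given on both scales. For some other genes only the change as deposited is given, which includes this shift of all genes. All changes are DPP3_KO minus Ctrl on the log2(value + 1) scale, which understates the change of low genes. Lung epithelial markers were high in all 6 libraries (Sftpc 14519 to 38794 TPM, Ager 356 to 2406 TPM), and the endothelial gene Pecam1 stood at 112 to 542 TPM.

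For 3 of the markers the sequence before the gene start is shown, because they stand for the 3 patterns below: Car4, an aerocyte marker that was lower in DPP3_KO; Emcn, a general capillary marker that did not pass; and Fibin, the aerocyte marker that was not lower. Each is the 250 bases before the start in RefSeq (build GRCm38.p6), read 5′ to 3′ on the gene's strand. Capitals mark AGGAAG or CCGGAA on either strand, longer forms of the GGAA core recognised by ETS factors, a family with central roles in endothelium. Other GGAA stretches in these windows are not marked.
Car4, chr11:84957504-84957753, + strand: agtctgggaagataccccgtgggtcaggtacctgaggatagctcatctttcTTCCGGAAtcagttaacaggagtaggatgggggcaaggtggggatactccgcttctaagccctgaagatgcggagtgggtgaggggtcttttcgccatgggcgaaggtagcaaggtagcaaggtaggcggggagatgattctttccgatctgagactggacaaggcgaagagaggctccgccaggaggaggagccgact
Emcn, chr3:137340828-137341077, + strand: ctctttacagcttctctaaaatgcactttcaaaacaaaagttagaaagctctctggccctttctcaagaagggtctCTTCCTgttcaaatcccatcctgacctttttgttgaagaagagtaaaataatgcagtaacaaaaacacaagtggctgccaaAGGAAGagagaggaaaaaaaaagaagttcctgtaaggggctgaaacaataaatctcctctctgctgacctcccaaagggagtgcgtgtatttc
Fibin, chr2:110362994-110363243, - strand: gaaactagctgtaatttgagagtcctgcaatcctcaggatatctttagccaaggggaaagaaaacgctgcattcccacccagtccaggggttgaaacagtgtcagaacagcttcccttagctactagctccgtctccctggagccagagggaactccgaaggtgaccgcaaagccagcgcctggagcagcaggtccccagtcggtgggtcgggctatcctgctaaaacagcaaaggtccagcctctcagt

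The Car4 window holds CCGGAA on both strands, overlapping in 1 palindrome, and the Emcn window holds AGGAAG at 2 places. The Fibin window holds neither, though it does hold GGAA with other flanking bases. Apln and Kit, among the 6 markers with an entry in the promoter table, each hold 1 AGGAAG, and Prx holds neither. Either motif is in 38.2% of all 32817 windows of this length, CCGGAA in 12% and AGGAAG in 29.5%, so a match or its lack is only a description of these letters.

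Most of the 10 markers were lower in the lungs of mice with DPP3_KO tumours. As deposited, 7 of 10 fell, 3 of 5 aerocyte markers (Car4, Prx, Apln) and 4 of 5 general capillary markers (Kit, Aplnr, Gpihbp1, Plvap), in a comparison in which 34.0% of all genes tested were called lower (limma, Benjamini-Hochberg adjusted over all genes). The falls of these 7 were 2.82-fold to 4.84-fold, and the median log2 change of the 10 markers was -1.63, against -0.60 for all genes. On the median-of-ratios scale the marker median was -0.97 against -0.02, but 0 of 10 passed (0.879% of all genes were called lower). On neither scale was a marker called higher, against 1.38% of all genes as deposited and 1.96% after scaling. Before adjustment, the limma p after scaling was 0.00464 for Car4, 0.00570 for Kit, 0.0149 for Prx, 0.0222 for Aplnr and 0.0438 for Apln, all lower. For Fibin, which was higher, it was 0.0348. The share of all genes with an unadjusted p under 0.05 is not given here, so these values do not set the markers apart from other genes. On the deposited scale the count was 0 of 10 without Ctrl replicate 2, when 85 of 15503 genes were called lower, 3 without Ctrl replicate 1 and 4 without DPP3_KO replicate 3.

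**Figure D1:**
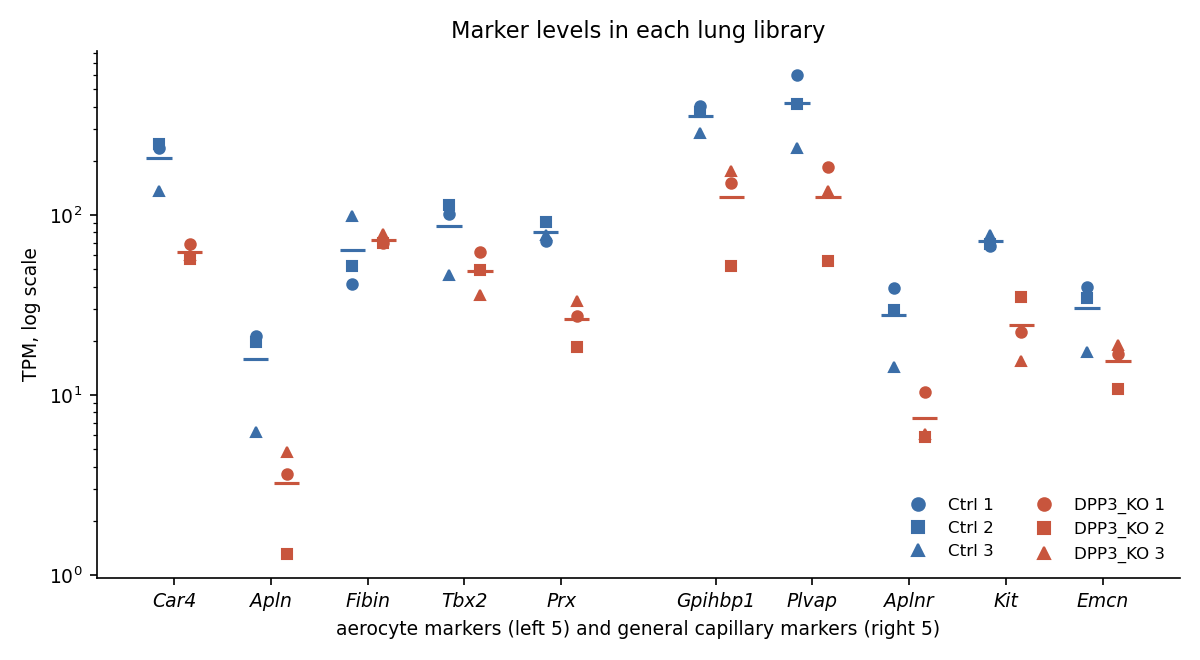
TPM of the 10 markers (log axis) in each of the 3 Ctrl (blue) and 3 DPP3_KO (red) libraries, with a line at each group mean. For 7 genes every DPP3_KO library lies below every Ctrl library, as for 51.1% of all genes tested. Fibin, Tbx2 and Emcn overlap between the groups.

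Among the aerocyte markers, Car4 (ENSMUSG00000000805) encodes carbonic anhydrase 4, an enzyme held on the capillary surface that speeds the exchange of carbon dioxide. It stood at 235, 248 and 137 TPM in Ctrl and at 69.2, 57.2 and 59.9 TPM in DPP3_KO. Every DPP3_KO library lay below every Ctrl library, as for 51.1% of all genes, and the DPP3_KO libraries were close together. Car4 fell from 206 ± 60.8 (SD, n = 3) to 62.1 ± 6.34 TPM, 3.33-fold, a log2 change of -1.67 ± 0.26 (SE, limma adjusted p = 0.0145). Scaled by median of ratios, it stood at -1.02 (adjusted p = 0.0790), again with no overlap between the groups (15.0% of all genes). Without Ctrl replicate 2 Car4 did not pass as deposited (-1.52, adjusted p = 0.0689).

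Prx (ENSMUSG00000053198) encodes periaxin, a scaffold protein best known from the myelin of Schwann cells. Its values were 72.0, 91.0 and 77.4 TPM in Ctrl and 27.5, 18.5 and 33.2 TPM in DPP3_KO. The Ctrl libraries were nearly level, and all lay well above the highest DPP3_KO library. The groups did not overlap on either scale, as for 51.1% of all genes as deposited and 15.0% after scaling. Prx fell by 1.60 on the log2 scale (SE 0.24, limma adjusted p = 0.0145), and stood at -0.95 (adjusted p = 0.126) after median-of-ratios scaling. Without Ctrl replicate 2 it did not pass as deposited (adjusted p = 0.0703). Of 6 Schwann cell and myelin genes, 4 were tested and 0 passed. Sox10, a transcription factor of Schwann cells, was at 1.73 TPM or below in every library, and Pmp2 was listed at 0.05 TPM or below.

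Apln (ENSMUSG00000037010), the apelin gene, was the lowest of the 10 in both groups and showed the largest fall. It stood at 21.4, 19.7 and 6.21 TPM in Ctrl and 3.62, 1.31 and 4.83 TPM in DPP3_KO. Ctrl replicate 3 lay near the DPP3_KO libraries, just above the highest of them. The log2 change was -1.92 ± 0.52 (SE, limma adjusted p = 0.0304), and -1.35 (adjusted p = 0.203) after median-of-ratios scaling, where the groups overlapped. Leaving out any 1 library other than Ctrl replicate 3 ended the call, with adjusted p = 0.0543 to 0.107.

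Tbx2 (ENSMUSG00000000093) encodes a T-box transcription factor that is also expressed in lung mesenchyme. Its values were 102, 113 and 46.5 TPM in Ctrl and 62.1, 49.4 and 35.9 TPM in DPP3_KO. The groups overlapped through Ctrl replicate 3, which lay below 2 of the DPP3_KO libraries. Tbx2 did not pass, at -0.75 (SE 0.37, limma adjusted p = 0.14) and -0.10 after median-of-ratios scaling. Without Ctrl replicate 3 it passed on the deposited scale (-1.15, adjusted p = 0.0302).

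Fibin (ENSMUSG00000074971) encodes fin bud initiation factor, a secreted protein named for its part in zebrafish limb growth. It was the 1 marker with a higher mean in DPP3_KO. Its values were 41.3, 52.2 and 98.2 TPM in Ctrl and 70.0, 70.2 and 78.2 TPM in DPP3_KO. The DPP3_KO libraries lay above 2 of the Ctrl libraries and below Ctrl replicate 3, the library in which Car4, Apln and Tbx2 were at the low end of Ctrl. The log2 change was 0.28 (SE 0.31, limma adjusted p = 0.485), and 0.93 (SE 0.36, adjusted p = 0.183) after median-of-ratios scaling. Without Ctrl replicate 3 these were 0.64 (adjusted p = 0.0503) and 1.33 (adjusted p = 0.0581), so Fibin did not pass in either case. Of all genes tested, 92.8% had a lower log2 change than Fibin as deposited, whereas 3.18% had a lower one than Car4.

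Fibroblasts are another lung cell type that can express Fibin and Tbx2. Of 8 lung fibroblast genes 0 passed, with a median log2 change of -0.68 (-0.03 after median-of-ratios scaling), and their summed level was 2768 to 4510 TPM in Ctrl and 2530 to 4288 TPM in DPP3_KO. Inmt alone (2107 to 3759 TPM over the 6 libraries) made up most of that sum. The genes differed in direction, with Npnt at -1.67 and Dcn at 0.35 as deposited, and -1.01 and 1.01 after scaling. The part of fibroblasts in the values of Tbx2 and Fibin was not tested.

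Among the general capillary markers, Gpihbp1 (ENSMUSG00000022579) encodes the protein that carries lipoprotein lipase to the capillary lumen. It stood at 406, 375 and 287 TPM in Ctrl and 150, 51.9 and 176 TPM in DPP3_KO. All DPP3_KO libraries were below Ctrl as deposited, as for 51.1% of all genes, and DPP3_KO replicate 2 was far below the others of its group. After median-of-ratios scaling the groups overlapped, with DPP3_KO replicate 3 at 252 and Ctrl replicate 3 at 243. The log2 change was -1.65 ± 0.44 (SE, limma adjusted p = 0.0298), and -0.99 (adjusted p = 0.301) after median-of-ratios scaling, or -0.36 on that scale without DPP3_KO replicate 2. Leaving out Ctrl replicate 1 or 2 ended the call as deposited (adjusted p = 0.0800 and 0.101).

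Plvap (ENSMUSG00000034845) encodes the protein of the diaphragms that close endothelial fenestrae and caveolae. Its values were 602, 414 and 234 TPM in Ctrl and 185, 55.2 and 136 TPM in DPP3_KO. It was the most variable of the general capillary markers in TPM, with an SD of 184 TPM in Ctrl, and DPP3_KO replicate 2 was again the lowest library. The log2 change was -1.79 ± 0.50 (SE, limma adjusted p = 0.0335), and -1.13 (adjusted p = 0.272) after median-of-ratios scaling, or -0.54 on that scale without DPP3_KO replicate 2. The groups were apart as deposited, as for 51.1% of all genes, and overlapped after scaling. As deposited, the call was lost without Ctrl replicate 1 or 2 or DPP3_KO replicate 2 or 3 (adjusted p = 0.0561 to 0.106).

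Aplnr (ENSMUSG00000044338) encodes the G protein-coupled apelin receptor. It stood at 39.5, 29.9 and 14.4 TPM in Ctrl and 10.3, 5.82 and 6.11 TPM in DPP3_KO. As for the ligand, Ctrl replicate 3 was the lowest Ctrl library and came closest to DPP3_KO. Aplnr fell by 1.71 on the log2 scale (SE 0.39, limma adjusted p = 0.0209), and stood at -1.10 (adjusted p = 0.149) after median-of-ratios scaling, where the groups overlapped. The call was lost without Ctrl replicate 1 or 2 or DPP3_KO replicate 3 (adjusted p = 0.0577 to 0.0874). The ratio of receptor to ligand within a library was 1.52 to 2.32 in Ctrl and 1.27 to 4.44 in DPP3_KO, so the ranges overlapped. Apela, the other ligand of this receptor, was listed at 0.280 TPM or below in every library and was not tested.

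Kit (ENSMUSG00000005672) encodes the receptor of stem cell factor. Its values were 67.5, 69.2 and 77.9 TPM in Ctrl and 22.3, 35.3 and 15.5 TPM in DPP3_KO. Kit differed from the other general capillary markers in which libraries were high: Ctrl replicate 3 held the most Kit and the least Gpihbp1, Plvap, Aplnr and Emcn of the Ctrl group, and DPP3_KO replicate 2 held the most Kit and the least of those 4 of its group. Kit fell by 1.59 on the log2 scale (SE 0.29, limma adjusted p = 0.0160), and stood at -0.94 (adjusted p = 0.0865) after median-of-ratios scaling. Every DPP3_KO library lay below every Ctrl library on both scales, as for 51.1% of all genes as deposited and 15.0% after scaling. Kit too did not pass as deposited without Ctrl replicate 2 (adjusted p = 0.0736). Mast cells also carry Kit. Of 8 mast cell genes 6, among them Cpa3, Ms4a2, Cma1 and Tpsb2, were at 0.890 TPM or below in every library and were not tested. The protease gene Mcpt4 stood at 1.03, 1.23 and 3.58 TPM in Ctrl and 3.87, 0.670 and 4.81 TPM in DPP3_KO, and did not pass. Hdc, which other leukocytes also express, was the abundant gene of the list, at 116 to 196 TPM in Ctrl and 58.9 to 135 TPM in DPP3_KO, and did not pass. The summed level of the 8 genes was 120 to 201 TPM in Ctrl and 63.6 to 137 TPM in DPP3_KO, and the part of mast cells in the values of Kit was not tested.

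Emcn (ENSMUSG00000054690) encodes endomucin, a sialic acid-rich surface protein of capillaries and veins. It stood at 40.0, 34.6 and 17.3 TPM in Ctrl and 16.9, 10.8 and 18.9 TPM in DPP3_KO. Ctrl replicate 3 lay inside the DPP3_KO range. Emcn did not pass, at -0.89 (SE 0.35, limma adjusted p = 0.0812) and -0.25 after median-of-ratios scaling, and it passed without Ctrl replicate 3 as deposited (-1.24, adjusted p = 0.0289).

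**Figure D2:**
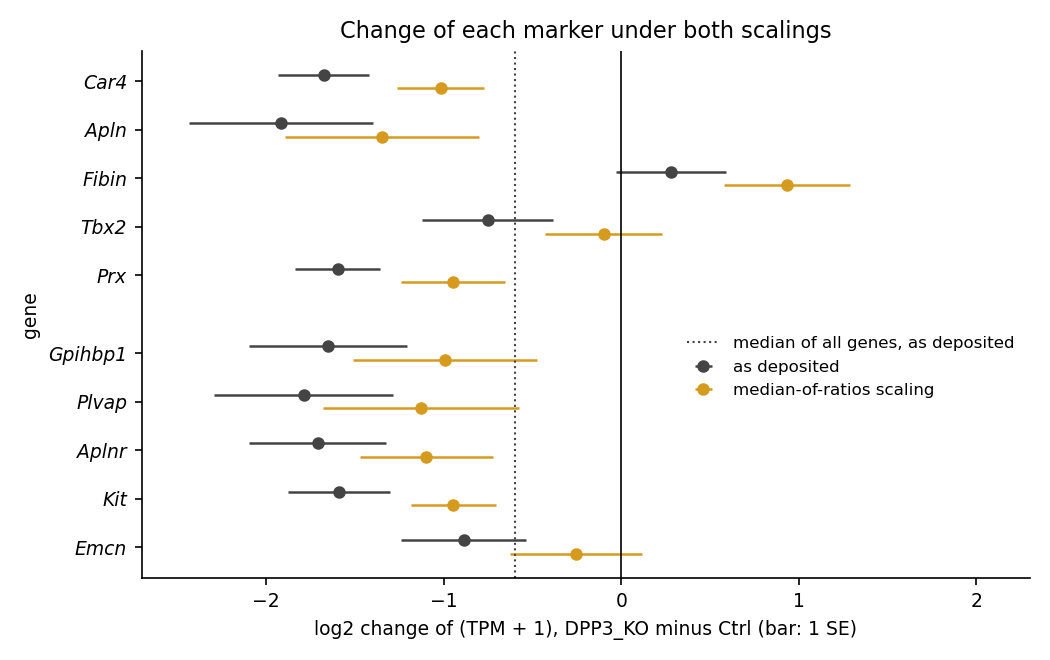
Log2 change of each marker, DPP3_KO minus Ctrl, as deposited (grey) and after median-of-ratios scaling (yellow), with bars of 1 SE (3 libraries a group) and a dotted line at the median of all genes as deposited. After scaling, Tbx2 (-0.10) and Emcn (-0.25) lie near 0, Fibin lies at 0.93 and the other 7 lie between -1.35 and -0.94.

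The order of the mean levels was alike in both groups except for Fibin and the leading pair. In Ctrl, Plvap (417 ± 184 TPM) and Gpihbp1 (356 ± 61.6) led and overlapped each other, and Car4 (206 ± 60.8) came next. Tbx2, Prx, Kit and Fibin (63.9 ± 30.2) followed, each overlapping its neighbour, and Emcn, Aplnr and Apln (15.8 ± 8.31) were lowest, also with overlapping neighbours. In DPP3_KO, Gpihbp1 (126 ± 65.5 TPM) and Plvap (125 ± 65.6) could not be told apart. Fibin (72.8 ± 4.69) came next by mean, its range just above that of Car4 (62.1 ± 6.34). In Ctrl the mean of Fibin stood below those of Car4, Tbx2, Prx and Kit. In Ctrl replicate 3, however, Fibin (98.2 TPM) stood above Tbx2 (46.5), Prx (77.4) and Kit (77.9). In DPP3_KO replicate 2 Fibin (70.2 TPM) stood above Gpihbp1 (51.9) and Plvap (55.2). The ratio of Fibin to Car4 within a library was 0.176, 0.211 and 0.719 in Ctrl and 1.01, 1.23 and 1.31 in DPP3_KO, with no overlap. Car4 itself fell, and the share of all genes whose ratio to Car4 did not overlap was not computed. The ratios of Gpihbp1 (mean 1.78 in Ctrl and 2.01 in DPP3_KO), Plvap (1.98 and 1.97) and Prx (0.413 and 0.425) to Car4 overlapped between the groups.

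The balance between the cell types was followed as the mean log2(TPM + 1) of the 5 general capillary markers minus that of the 5 aerocyte markers in the same library, a quantity that hardly depends on the scaling. It was 0.81, 0.41 and 0.41 in Ctrl and 0.34, -0.02 and 0.14 in DPP3_KO. Every DPP3_KO library was thus below every Ctrl library, with a difference of -0.39 between the group means (0.54 ± 0.23 and 0.15 ± 0.18, SD, n = 3). With Fibin left out of the aerocyte mean, a choice made after its values were seen, the values were 0.63, 0.27 and 0.64 in Ctrl and 0.61, 0.36 and 0.46 in DPP3_KO. The groups then overlapped, and the difference was -0.04. The group means of the other 4 aerocyte markers and of the 5 general capillary markers differed by -1.48 and -1.53. No test is given for these means, since the markers were chosen with earlier results known.

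**Figure D3:**
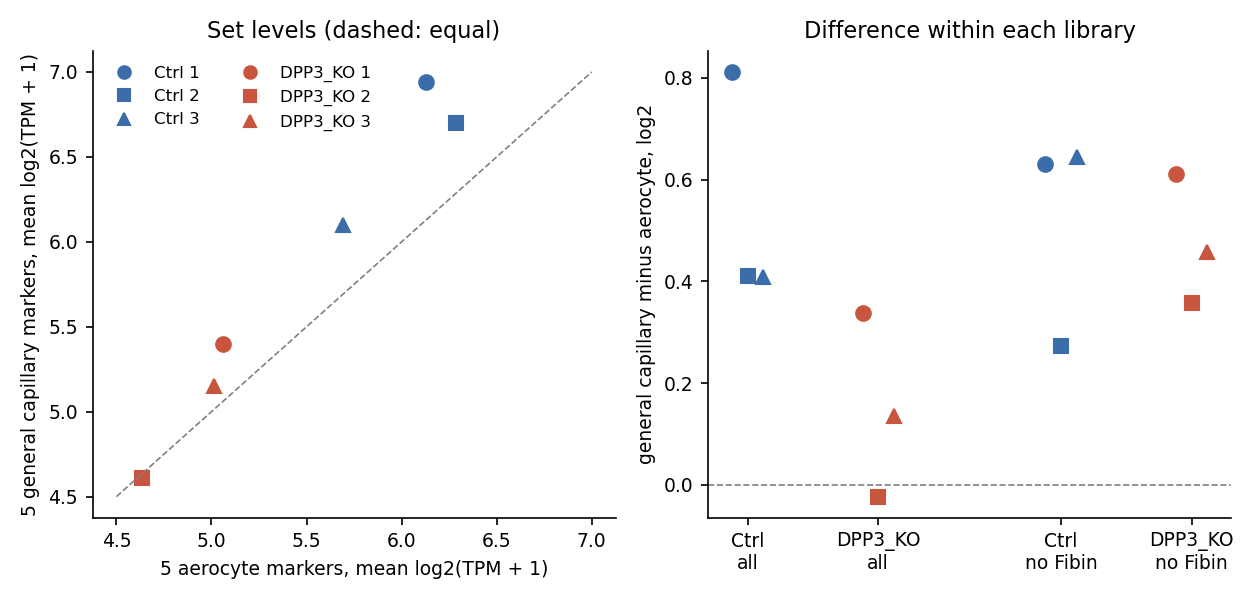
Left, mean log2(TPM + 1) of the 5 general capillary markers against that of the 5 aerocyte markers, 1 point a library; the DPP3_KO libraries lie lower on both axes. Right, the difference of the means in each library with all markers and with Fibin left out; the groups separate in the first (difference -0.39) and overlap in the second (-0.04).

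Of 12 pan-endothelial genes 7 fell as deposited and 5 did not pass, with a median of -1.05, where 34.0% of all genes were called lower. The junction cadherin gene Cdh5 (-2.55), Erg (-1.79) and Pecam1 (-1.75) had the smallest p of the list. After median-of-ratios scaling 2 of the 12 passed, Cdh5 (-1.89) and Erg (-1.15), where 0.879% of all genes were called lower, and the median was -0.41. On that scale Cldn5 (0.23), Egfl7 (0.25) and Ramp2 (0.13) stood above 0 and did not pass. The mean of these 12 genes itself differed by -1.19 between the groups as deposited, against a median of -0.60 for all genes. A gene that fell less than this mean therefore stands higher against it in DPP3_KO. Set against the mean of these 12 genes in its own library, Fibin was higher in every DPP3_KO library (-0.19, 0.46 and 0.03) than in any Ctrl library (-1.99, -1.67 and -0.45). The share of all genes that separate in this way was not computed. The other 9 markers overlapped between the groups on this measure, with differences from -0.72 for Apln to 0.44 for Tbx2. Car4 stood at 0.35 ± 0.29 in Ctrl and -0.13 ± 0.27 in DPP3_KO, and Gpihbp1 at 1.17 ± 0.10 and 0.71 ± 0.60.

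**Figure D4:**
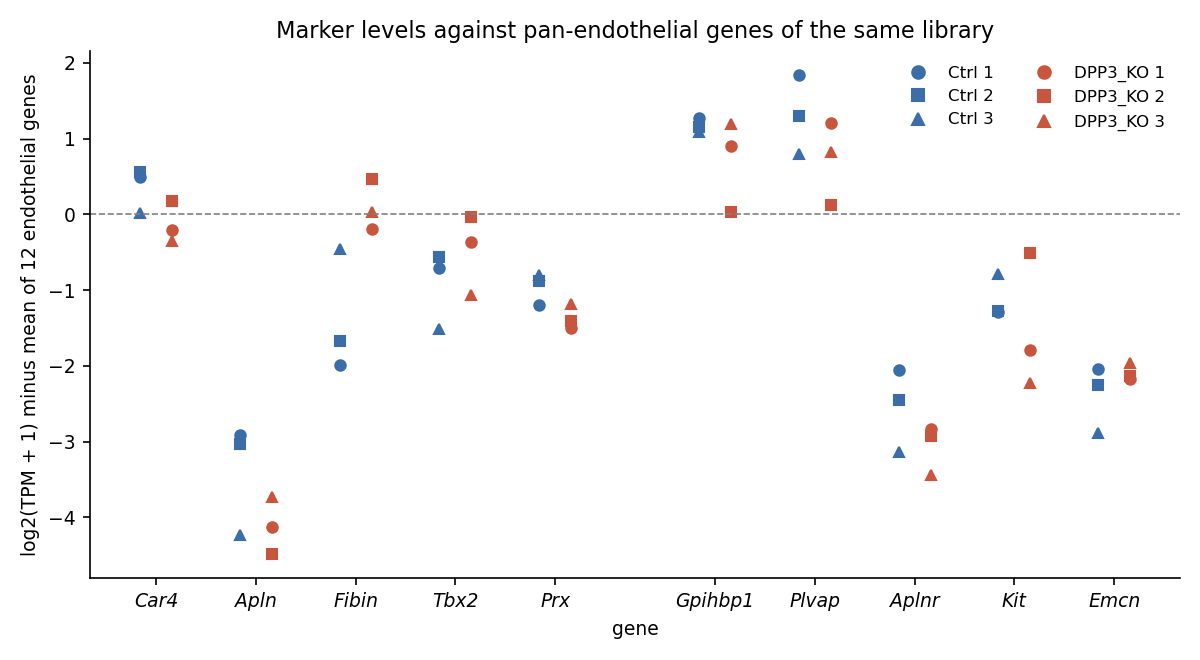
Log2(TPM + 1) of each marker minus the mean of 12 pan-endothelial genes of the same library, for 3 Ctrl (blue) and 3 DPP3_KO (red) libraries; the dashed line marks equal level. The groups overlap for 9 markers, and Fibin lies higher in all 3 DPP3_KO libraries. The mean of the 12 genes itself differs by -1.19 between the groups.

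Further genes of both cell types were lower as well. Of 10 other aerocyte genes 7 fell as deposited and 0 rose, with a median of -1.33 (-0.68 after median-of-ratios scaling, where 0 passed). Tmcc2, at -1.39, the endothelin receptor gene Ednrb, at -1.22, and the co-receptor gene Nrp1, at -2.19, led by p (limma adjusted p = 0.0145, 0.0149 and 0.0155). Of 10 other general capillary genes 9 fell, with a median of -1.99 (-1.38 after scaling). Clec1a fell from 49.8 ± 6.97 to 7.11 ± 2.88 TPM (-2.71), and Cd93 (-1.98) and Bmp6, a bone morphogenetic protein gene (-1.57), fell with it. After median-of-ratios scaling 2 of the 10 passed, Clec1a at -2.10 and Bmp6 at -0.93.

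Some genes that act with the markers or are related to them fell as well, where 34.0% of all genes tested were called lower. Of 13 partner and related genes 11 were tested, and 7 fell and 0 rose as deposited (median -0.91), with 0 passing after median-of-ratios scaling (-0.26). The vascular growth factor gene Vegfa stood at -1.93, Podxl, a sialomucin gene like Emcn, at -1.92, and Tbx3, a relative of Tbx2, at -1.30. Kitl, the ligand of Kit, fell by 1.43 (limma adjusted p = 0.0186), and the ratio of Kit to Kitl was 1.21 to 1.72 in Ctrl and 1.07 to 1.57 in DPP3_KO. Lpl, the lipase that Gpihbp1 carries, fell by 0.80 (adjusted p = 0.0408) and stood at -0.15 after scaling. Of 16 carbonic anhydrase genes 10 were tested and 2 fell, Car4 and the cytosolic enzyme gene Car2 (-1.23, adjusted p = 0.0205). Their median was -0.32, and 0.16 after scaling, where 0 passed.

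Some markers of other vessel and lung cells also passed the test, and their part in the values of the 10 markers was not tested. As deposited 4 of 6 arterial genes fell (median -1.06), 2 of 6 venous genes (-0.89), 3 of 5 lymphatic genes (-1.19) and 3 of 6 pericyte genes (-1.04), where 34.0% of all genes tested were called lower and the venous share was near that background. Of 8 alveolar type 1 genes 7 fell (median -1.93), with Pdpn at -1.92, Emp2 at -2.30 and Clic5 at -2.46, and of 8 alveolar type 2 genes 5 fell (-1.21). Of 8 club cell genes 5 rose (median 1.40), and of 8 heart muscle genes 5 rose (1.49), with Tnnt2 at 1.59, where 1.38% of all genes were called higher. After median-of-ratios scaling 1 arterial, 2 alveolar type 1 and 0 venous, lymphatic, pericyte and alveolar type 2 genes were called lower (0.879% of all genes). Called higher were 4 club cell and 5 heart muscle genes (1.96% of all genes). The scaled medians were -0.42 for arterial, -0.24 for venous, -0.62 for lymphatic and -0.40 for pericyte genes. They were -1.29 for alveolar type 1, -0.56 for alveolar type 2, 2.05 for club cell and 2.14 for heart muscle genes. The summed level of the heart muscle genes was 531 to 1105 TPM in Ctrl and 2016 to 2131 TPM in DPP3_KO. Capillaries of heart and fat also carry Gpihbp1. Of 7 adipocyte genes tested 1 fell and 0 rose, and the summed level of the 8 listed was 100 to 150 TPM in Ctrl and 108 to 214 TPM in DPP3_KO. Among them Cfd stood at 57.1 TPM in DPP3_KO replicate 1 and at 14.8 TPM or below in every other library. Fabp4 (82.4 TPM) and Lipe (54.6 TPM) were highest in Ctrl replicate 3.

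By a rule of likeness, the genes whose log2(TPM + 1) followed the mean standardised pattern of the aerocyte markers most closely over the 6 libraries were Vwa8, Nlgn2, Stmn2, Ntan1 and Ddx18 (Pearson r 0.997 to 0.999 among 11211 genes). For the general capillary markers they were Fam162b, Rnf122, Tnfsfm13, Emc7 and Arhgap23 (0.996 to 0.998). Fam162b, for example, stood at 27.6, 21.7 and 14.7 TPM in Ctrl and 9.57, 5.96 and 8.36 TPM in DPP3_KO. Both patterns are set mainly by the gap between the groups, so these values describe likeness in 6 libraries and carry no p. For Fibin alone, asked after its values were seen, the closest named gene by this measure was Zfp87 after an unnamed gene model, followed by Lox, which encodes the collagen cross-linking enzyme lysyl oxidase (0.940, 40.6, 65.2 and 191 TPM in Ctrl and 184, 116 and 160 TPM in DPP3_KO).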

How the data were processed

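Lung RNA of 6 libraries was sequenced from TruSeq libraries, per the labels' protocols. The authors deposited 1 matrix of TPM per gene with lengths; per the submitters' processing notes HISAT2, StringTie, RSEM and GRCm39 were used, with no version or role given. The treatment of human reads is not given in the sources used here. Groups and replicate numbers came from the titles; 1 Ctrl title (replicate 3) begins with 232, not 231, and was kept in Ctrl. Depth cannot be read from TPM, so no counting interval is given. On the log2(TPM + 1) scale, the 15650 genes whose mean reached 1 TPM were fitted with limma 3.58.1 (R 4.3.3; lmFit, eBayes with an intensity trend), two-sided, adjusted by Benjamini-Hochberg over all of them, with a threshold of 0.05. An exact permutation test of 3 against 3 cannot go below p = 0.1, so none is given. Median-of-ratios factors came from genes above 0 in all 6 libraries with a mean of at least 1 TPM, and 15584 genes were then tested. The fit and the scaling were tested on simulated data. The markers and the 19 gene lists were chosen with earlier results of these data known. Named genes were the markers, the 3 smallest p of a list, the 3 most abundant genes of other cell types, Scgb1a1, and the 5 genes most like each marker set; Kitl, Lpl, Cldn5, Egfl7, Ramp2, Cpa3, Ms4a2, Cma1, Tpsb2, Sox10, Pmp2, Apela and the genes like Fibin were chosen after their values were seen, and not all genes the rule allows are printed. Alternatives changed the scaling, pseudocount (0.1 and 5), filter, variance model, replicate block and libraries used. Promoters came from RefSeq (GRCm38.p6), which had 6 of the 10 markers, and no coordinate of the deposited matrix was used. The values of 1 gene of the lists are not reported here.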

Additional observations from a re-analysis of the deposited data

How the results depend on the processing

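The number of the 10 markers called lower (7, of which 3 aerocyte and 4 general capillary markers) was 0 after median-of-ratios scaling, quantile normalization, median-of-ratios scaling with the replicate block and with the length trend removed; with TPM rescaled without Scgb1a1 it was 1, an aerocyte marker, and 0 general capillary markers. With each library left out in turn it ranged from 0 to 9 (0 to 4 and 0 to 5), and after median-of-ratios scaling it was 0 each time. Without a filter, when 29859 genes were tested, it was 4, of which 2 general capillary markers. The cause was not tested. The replicate numbers gave same-number correlations of deviations of 0.271, -0.206 and 0.147. No pairing by number was evident, and 3 libraries a group cannot show that there was none. With the replicate block 6 markers were called, and 0 after median-of-ratios scaling. Tbx2 turned to 0.0345 with the length trend removed and to 0.063, 0.0857 and 0.0218 after median-of-ratios scaling without Ctrl replicate 1, Ctrl replicate 2 or DPP3_KO replicate 3, and Emcn to 0.0608 without DPP3_KO replicate 2. Fibin was above 0 and did not pass in all 26 alternatives (0.02 to 1.33, adjusted p = 0.0503 to 0.963). The general capillary minus aerocyte difference ranged from -0.49 to -0.25 in alternatives with all 10 markers and was -0.0407 without Fibin, an alternative chosen after seeing the data.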
